A study of Homo sapiens with 2 samples.

Results

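The core spliceosome and snRNP protein genes are those that encode the Sm and LSM rings, the proteins of the U1, U2 and U4/U6.U5 particles, the U2AF heterodimer and other PRPF splicing factors. They were chosen by symbol alone, as genes named SF3A or SF3B, SNRP, PRPF, LSM or U2AF followed by the letters and numbers of a family member, without pseudogenes. The rule found 51 genes of the 18786 symbols with a value in both libraries, and all 51 were among the 12342 genes with a mean of at least 1 FPKM, a level scaled by transcript length and library size. The libraries were made by RNA sequencing of A549, a lung adenocarcinoma cell line. Of the 2 cultures, 1 carried ATOH8, a basic helix-loop-helix transcription factor gene, by stable retroviral transduction, and the other carried the retroviral vector alone. Each group held 1 library, so every difference compares these 2 libraries, has no replicate check and carries no p-value. Whether a transduced line was a clone or a pool, and how deeply it was sequenced, is not given in the sources used here.

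Introns are removed by the spliceosome, which assembles on each transcript from small nuclear ribonucleoproteins (snRNPs). A ring of Sm proteins surrounds the U1, U2, U4 and U5 snRNAs, and a ring of LSM proteins surrounds U6. U1 recognises the 5′ splice site, U2AF and the U2 particle with SF3A and SF3B recognise the 3′ splice site and the branch point, and the U4/U6.U5 particle then joins so that the catalytic centre can form.

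ATOH8 itself was at 182 FPKM in the ATOH8 library and 0.786 FPKM in the vector library, so the transduced gene stood where the labels place it. Of 5 epithelial markers, KRT8 (2302 and 2381 FPKM, ATOH8 and vector), KRT18 (2012 and 2486 FPKM) and CDH1 (54.1 and 15.4 FPKM) were well detected, whereas EPCAM was at 2.23 and 1.70 FPKM and KRT19 at 0.070 and 0.219 FPKM. The 3 endothelial markers summed to 0.069 FPKM in the ATOH8 library and were not listed in the vector library, and the 4 fibroblast markers summed to 0.598 and 0.395 FPKM. The 3 leukocyte markers summed to 15.4 and 2.14 FPKM, nearly all of it CD68, with PTPRC at 0.011 FPKM in the ATOH8 library, not listed in the vector library, and CD3E listed in neither. The 3 neuronal markers summed to 19.7 and 20.6 FPKM. Their part in the values below was not tested. The deposited FPKM of all genes were shifted between the libraries by a median log2 fold of -0.36, taken over genes with a mean of at least 5 FPKM. Log2 folds of ATOH8 over vector, computed on log2(FPKM + 1), are therefore given relative to that median gene unless stated otherwise. A log2 fold of 1 in either direction (2-fold) is the rule of size used throughout.

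Most core spliceosome and snRNP protein genes were lower in the ATOH8 library. Of the 51, 18 were at least 2-fold lower, 0 were 2-fold higher or more, and 39 lay below the median gene and 12 above it. Among all 12342 genes tested, 9.46% were at least 2-fold lower, 12.8% at least 2-fold higher and 47.0% below the median gene. The share of members at least 2-fold lower was 35.3%, and their median log2 fold was -0.71, against 0.06 for all genes tested. The lower quartile of the members was -1.15 and the upper quartile -0.08. Of the members, 6 lay within 0.1 of the 2-fold line on the log2 scale, namely LSM1, LSM8, PRPF19, U2AF1 and U2AF1L5 just past it and SF3A3 just short of it. With the FPKM as deposited and no centring, 43 members were lower and 8 higher, and 29 were at least 2-fold lower. Of all genes, 64.7% were then lower, 19.0% by 2-fold or more, and 6.24% were higher by 2-fold or more.

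The members were well expressed in both libraries. Their levels had a median of 22.5 FPKM in ATOH8 cells and 40.4 FPKM in vector cells, where the median tested gene stood at 7.25 and 9.71 FPKM. They ran from 1.64 to 186 FPKM in the ATOH8 library and from 1.54 to 383 FPKM in the vector library. In all, 41 members were above the median tested gene in ATOH8 cells and 47 in vector cells. Of all FPKM summed, the members took 0.337% in ATOH8 cells and 0.597% in vector cells. With MT-CO1 left out of the totals, the other transcripts of the mitochondrial genome took 24.2% in ATOH8 cells and 14.4% in vector cells. With MT-CO1 and these transcripts all left out, the members' share was 0.444% in ATOH8 cells and 0.715% in vector cells. In such bulk libraries, fewer cells that express a gene and less of its RNA per cell cannot be told apart. The order of the members was largely kept, with a Spearman correlation of 0.89 between the 2 libraries across the 51 genes, described without a test because genes of 1 pair of libraries share depth and preparation.

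**Figure D1:**
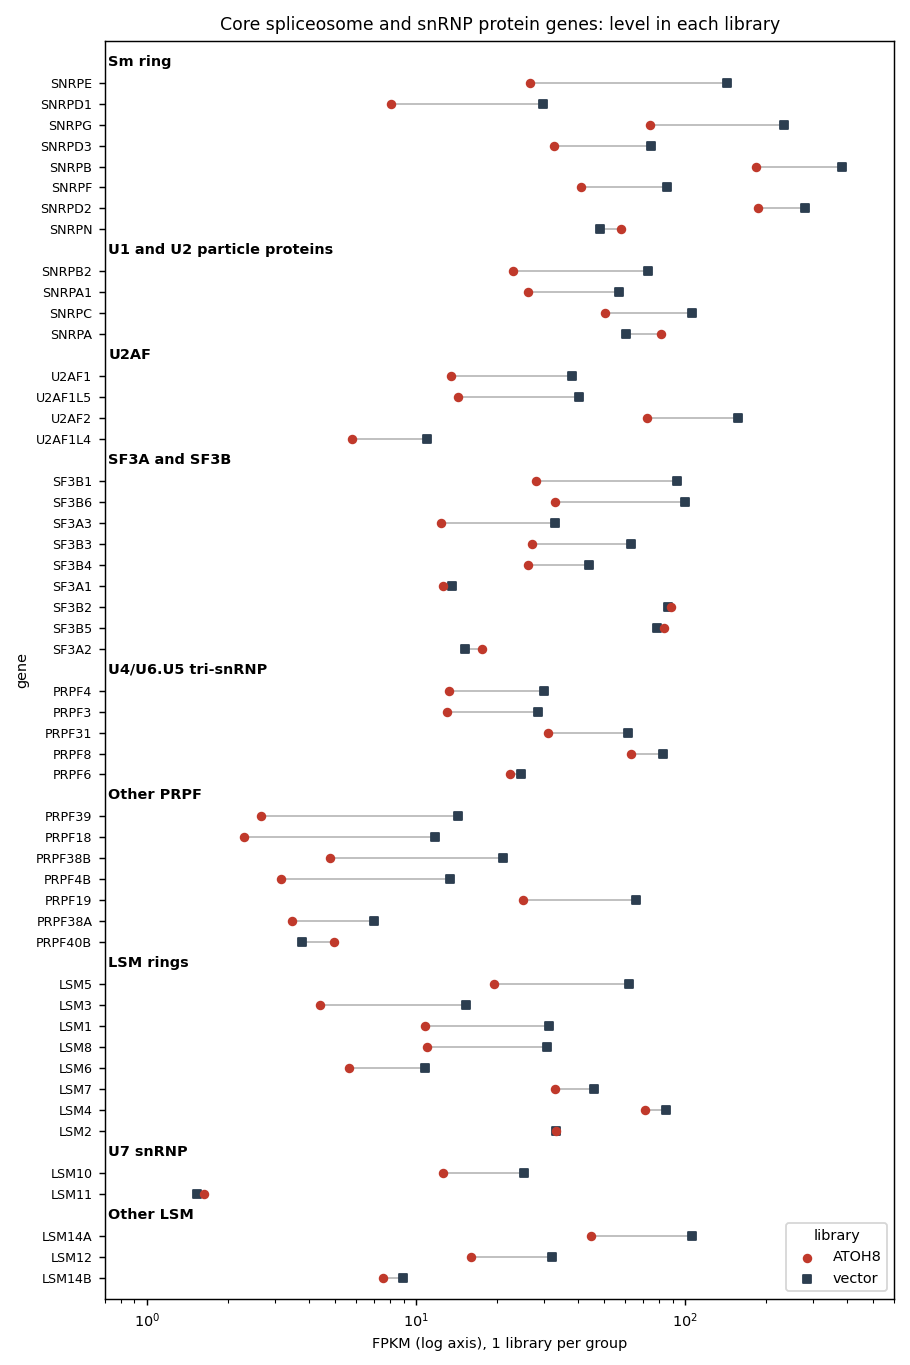
FPKM on a log axis for 50 of the 51 genes, arranged by role and then by log2 fold, with the ATOH8 library as red circles, the vector library as dark squares and a grey line joining the values of 1 gene. The red circle lies to the left for 42 of the 50 genes, with the widest gaps at SNRPE and at PRPF39, PRPF18 and PRPF38B.

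The Sm ring held both the most abundant members and the one with the lowest log2 fold. SNRPE, which encodes a small subunit of the ring, was at 26.5 FPKM in the ATOH8 library and 143 FPKM in the vector library, a log2 fold of -2.03. The gene (ENSG00000182004) lies at chr1:203861603-203870550 on the plus strand (GRCh38, GENCODE 29). It ranked 2281 of the 12342 tested genes by level in ATOH8 cells and 462 in vector cells. SNRPD1 was at 8.07 and 29.7 FPKM (log2 fold -1.40), and SNRPG, the third most abundant member in the vector library, at 74.4 and 232 FPKM (-1.27). These 3 were the ring genes past the 2-fold line. SNRPB, which encodes the SmB and SmB′ proteins, was the most abundant member in the vector library, at 183 FPKM in ATOH8 and 383 FPKM in vector (-0.70). SNRPD2 was at 186 and 279.6 FPKM (-0.22), and it was the most abundant member in the ATOH8 library. SNRPD3 (32.5 FPKM in ATOH8 and 74.9 FPKM in vector, -0.82) and SNRPF (41.1 and 85.5 FPKM, -0.68) lay between. All 7 genes of the general ring were thus below the median gene, with a median of -0.82, but by different amounts, so their spread was wider in the ATOH8 library. The highest level was 23.1 times the lowest in ATOH8 cells and 12.9 times in vector cells, where SNRPD1 was the lowest in both.

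Among the proteins specific to the U1 and U2 particles, 3 of 4 lay below the median gene. SNRPB2, which encodes the U2 protein B″, was at 23.0 FPKM in the ATOH8 library and 73.0 FPKM in the vector library (-1.26). Its partner on U2 snRNA, SNRPA1, was at 26.04 and 57.0 FPKM (-0.74). SNRPC, of the U1 particle, was at 50.5 and 106 FPKM (-0.70). SNRPA, which encodes the U1 protein that binds a stem loop of U1 snRNA, was at 81.4 FPKM in ATOH8 and 60.5 FPKM in vector (0.78). It had the highest log2 fold of all 51 members and was higher also with the FPKM as deposited.

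The U2AF genes, whose products read the 3′ splice site and its polypyrimidine tract, all lay below the median gene. U2AF2, the large subunit and the fourth most abundant member by mean level, was at 72.5 FPKM in the ATOH8 library and 157 FPKM in the vector library (-0.74). U2AF1, the small subunit, was at 13.5 and 38.1 FPKM (-1.08), and its listed copy U2AF1L5 at 14.4 and 40.4 FPKM (-1.07). U2AF1L4, a related small subunit, was at 5.79 and 11.0 FPKM (-0.46).

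The SF3A and SF3B genes, whose complexes hold U2 on the branch point, did not move as a block. SF3B1, the scaffold of SF3B and a gene recurrently mutated in blood cancers, was at 27.9 FPKM in the ATOH8 library and 93.3 FPKM in the vector library (-1.35). SF3B6, whose small protein contacts SF3B1 and the branch point, was at 33.01 and 100.1 FPKM (-1.21). SF3A3 (12.4 and 32.9 FPKM, -0.97), SF3B3 (27.0 and 62.8 FPKM, -0.83) and SF3B4 (26.2 and 44.1 FPKM, -0.37) followed. The other 4 lay above the median gene. SF3B2 was at 88.9 FPKM in ATOH8 and 86.8 FPKM in vector (0.39), SF3B5 at 83.2 and 79.0 FPKM (0.43), and SF3A2 at 17.5 and 15.3 FPKM (0.55). SF3A1 (0.26) was above the median gene but lower in the ATOH8 library with the FPKM as deposited (12.6 and 13.6 FPKM). The result was a change of order within SF3B. In the vector library SF3B6 and SF3B1 stood above SF3B2 and SF3B5, and in the ATOH8 library they stood below them.

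Of the 5 genes of the U4/U6.U5 particle, 0 were past the 2-fold line, where 9.46% of all genes were at least 2-fold lower, and their median was -0.60. PRPF4 had the lowest log2 fold (-0.75), at 13.3 FPKM in the ATOH8 library and 29.8 FPKM in the vector library. PRPF3, which together with PRPF4 forms a complex on U4/U6, had a nearly equal log2 fold of -0.71 (13.1 and 28.5 FPKM). PRPF31, which also binds U4, was at 30.9 and 61.3 FPKM (-0.60). PRPF8, the large protein at the catalytic centre, was at 62.8 and 82.8 FPKM (-0.03). PRPF6, which bridges U5 and U4/U6, was at 22.5 and 24.6 FPKM, above the median gene (0.23) although lower with the FPKM as deposited. Genes encoding PRPF3, PRPF4, PRPF6, PRPF8 and PRPF31 are all known for mutations in retinitis pigmentosa, a degeneration of the retina.

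Of the 8 remaining PRPF genes, 6 were at least 2-fold lower, against 9.46% of all genes, and their median of -1.35 was the lowest of the role groups. They were low in GC content, with a median of 40.2%, and 26.4% of all genes under 42% GC were at least 2-fold lower. After a correction for GC content 3 of the 8 were at least 2-fold lower, against 4.75% of all genes after the same correction. The median of the 8 was then -0.82, and that of the 7 genes of the general Sm ring -0.83. PRPF39, whose yeast homologue is a U1 protein, was at 2.66 FPKM in the ATOH8 library and 14.4 FPKM in the vector library (-1.71). PRPF18, which acts in the second catalytic step, was at 2.30 and 11.8 FPKM (-1.59), and PRPF38B at 4.79 and 21.1 FPKM (-1.57). PRPF4B, a nuclear kinase of splicing proteins, was at 3.15 and 13.4 FPKM (-1.44). PRPF19, the ubiquitin ligase that gives its complex its name, was the most abundant of the group at 24.9 and 65.6 FPKM (-1.004). PRPF38A, of the precatalytic complex, was at 3.48 and 6.99 FPKM (-0.48). PRPF40B alone was higher, at 4.98 FPKM in ATOH8 and 3.78 FPKM in vector (0.68). The 4 genes of this group with the lowest log2 folds stood between 2.30 and 4.79 FPKM in the ATOH8 library and between 11.8 and 21.1 FPKM in the vector library. At the lowest of these levels the pseudocount of 1 FPKM makes the log2 fold smaller than the ratio of the levels. PRPF18 in the ATOH8 library was at 19.6% of its vector level, and PRPF39 at 18.5%.

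Genes of the LSM rings were split. LSM2 to LSM8 form the nuclear ring on U6, and LSM1 replaces LSM8 in a cytoplasmic ring that acts in mRNA decay. LSM5 was at 19.5 FPKM in the ATOH8 library and 62.0 FPKM in the vector library (-1.26), and LSM3 at 4.39 and 15.3 FPKM (-1.24). The 2 genes that set the rings apart were LSM1 at 10.8 and 31.2 FPKM (-1.09) and LSM8 at 11.0 and 30.8 FPKM (-1.05). After a correction for GC content their log2 folds were -1.25 for LSM1 and -0.34 for LSM8. LSM6 was at 5.63 and 10.8 FPKM (-0.47) and LSM7 at 32.8 and 46.1 FPKM (-0.12). LSM4, at 70.8 and 85.1 FPKM, was above the median gene (0.10) and lower with the FPKM as deposited. LSM2 had nearly the same level in both libraries, 33.2 FPKM each (0.36). As in the Sm ring, the genes of the U6 ring were further apart in the ATOH8 library, where the highest level was 16.1 times the lowest, against 7.90 times in the vector library.

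The LSM proteins of other particles lay inside the 2-fold lines. LSM10 and LSM11 replace a pair of Sm proteins in the U7 snRNP, which processes the 3′ ends of histone mRNAs. LSM10 was at 12.6 FPKM in the ATOH8 library and 25.1 FPKM in the vector library (-0.58), and LSM11, the lowest member of all, at 1.64 and 1.54 FPKM (0.41). LSM14A, a protein of cytoplasmic processing bodies, was at 44.9 and 106 FPKM (-0.87), and its relative LSM14B at 7.58 and 8.94 FPKM (0.15, lower with the FPKM as deposited). LSM12 was at 16.004 and 31.9 FPKM (-0.60).

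**Figure D2:**
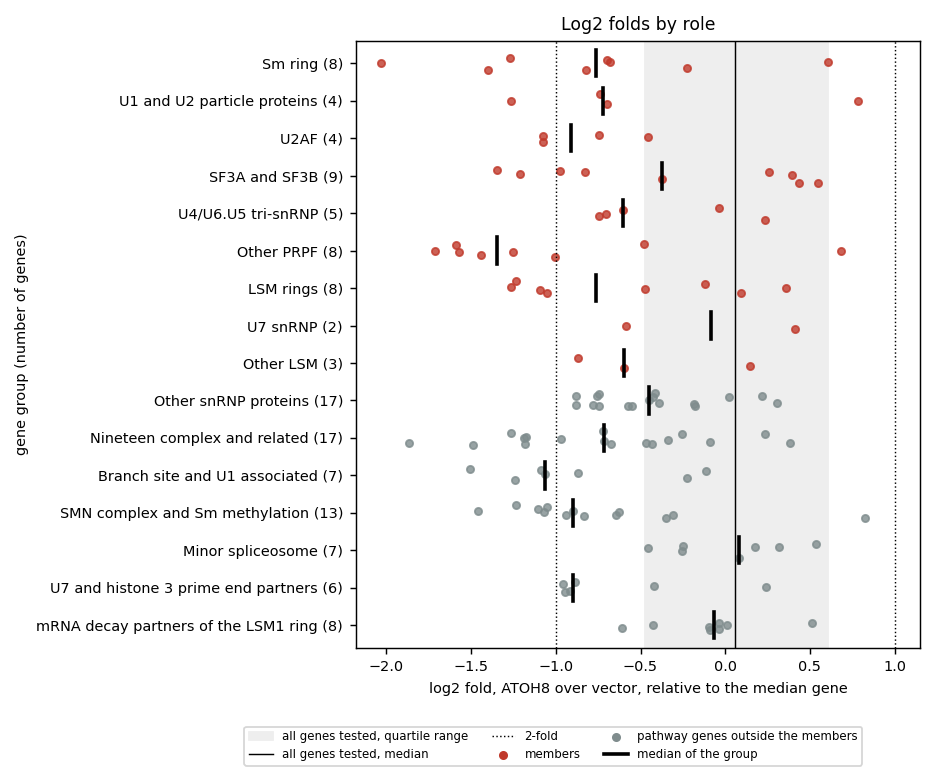
Log2 fold of ATOH8 over vector relative to the median gene for each gene (points), by role, with black bars at group medians, a grey band for the quartile range of all genes tested and dotted lines at 2-fold. Medians of the member groups run from -1.35 for the remaining PRPF genes to -0.09 for the U7 snRNP pair, and 0 points lie past the upper 2-fold line.

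Related genes did not keep their ratio. SNRPB and SNRPN encode closely similar Sm proteins, the second known for its imprinted locus and its high level in neurons. SNRPB was 3.18 times as abundant as SNRPN in the ATOH8 library and 7.90 times in the vector library. SNRPN was at 57.6 FPKM in ATOH8 and 48.4 FPKM in vector (0.61), where SNRPB was at 183 and 383 FPKM. SNRPB2 and SNRPA encode related RNA-binding proteins of U2 and U1, and the level of SNRPB2 was 0.283 times that of SNRPA in ATOH8 and 1.21 times in vector. The ratio of PRPF38B to PRPF38A was 1.38 in ATOH8 and 3.02 in vector, and that of LSM14A to LSM14B 5.92 and 11.9. The ratio of U2AF1 to U2AF1L4 was 2.32 in ATOH8 and 3.48 in vector, with a difference in log2 fold of -0.62 that was 0.04 after a correction for GC content. In the other 4 pairs the gene with the lower log2 fold was the more abundant one in the vector library, and in each the levels lay further apart there, except for SNRPB2 and SNRPA, whose order was reversed. The differences between the log2 folds in those 4 pairs ran from -2.04 for SNRPB2 minus SNRPA to -1.01 for LSM14A minus LSM14B. After the correction for GC content the differences were -1.60 for SNRPB minus SNRPN, -1.24 for PRPF38B minus PRPF38A, -0.90 for SNRPB2 minus SNRPA and -0.02 for LSM14A minus LSM14B, so the first pair and the second lay further apart than before and the others closer.

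**Figure D3:**
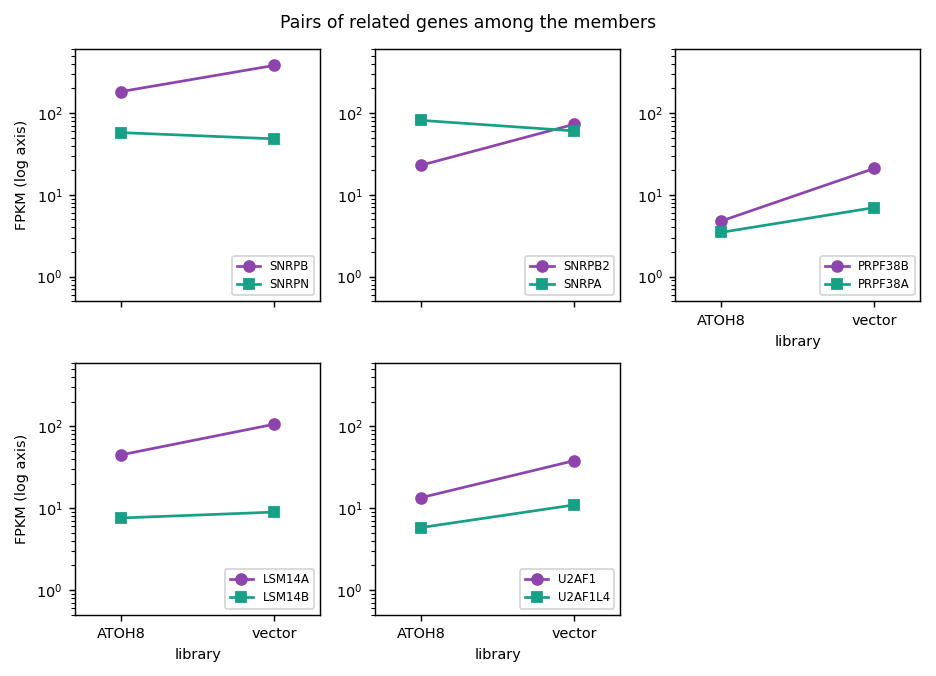
FPKM on a log axis in the ATOH8 library (left) and the vector library (right) of each panel, for 5 pairs of related genes joined by lines. SNRPB2 and SNRPA cross, with SNRPB2 at 23.0 FPKM in ATOH8 and 73.0 FPKM in vector, while PRPF38B and PRPF38A lie closer together in ATOH8 than in vector.

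Some of these levels cannot be assigned to 1 gene. Of the 50-base windows in the longest U2AF1 transcript of GENCODE 29, 98.9% also occurred in transcripts of another gene, nearly all in U2AF1L5, and 98.4% of those of U2AF1L5 occurred in U2AF1. These symbols are therefore best read as a single signal, at a summed 27.8 FPKM in ATOH8 and 78.5 FPKM in vector. SNRPN shared 44.2% of its windows, mostly with SNURF, and its locus string in the deposited tables also held 12 other listed genes. PRPF18 shared 42.5%, PRPF40B 33.6% with FMNL3, LSM1 29.8%, PRPF31 25.9%, LSM12 22.1% with a pseudogene, and SNRPE 18.6%, mostly with the pseudogene SNRPEP4. SNRPEP4 was not listed in the ATOH8 library and stood at 1.35 FPKM in vector cells. For 38 members fewer than 10% of the windows were shared. Of these, 13 were at least 2-fold lower, against 9.46% of all genes, and the median of the 38 was -0.72. The locus strings of 23 members held another listed gene, so reads could have been divided between neighbours. The other 28 included 12 that were at least 2-fold lower, against the same 9.46% of all genes, and the median of the 28 was -0.85.

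The log2 folds of the members followed base composition, as those of all genes did. Across the 51 members the Pearson correlation of log2 fold with the GC content of the longest transcript was 0.62 and the Spearman correlation 0.64, and across 12313 genes they were 0.51 and 0.55. These describe genes of the same 2 libraries, which share depth and preparation. The members were not unusual in composition, with a median GC content of 48.5%, as for all genes. In each of 3 ranges of GC content the median of the members was below that of all genes. The part of base composition in the differences was not tested beyond these values and the correction that follows. Under 42%, 10 of 15 members were at least 2-fold lower, against 26.4% of genes, and the medians were -1.26 and -0.57. From 42% to 52%, 7 of 18 were at least 2-fold lower, against 6.93% of genes, with medians of -0.82 and 0.0027. At 52% or more, 1 of 18 was, against 1.21% of genes, with medians of -0.08 and 0.49.

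After the trend with GC content was subtracted, 10 members were at least 2-fold lower and 0 higher, where the shares of all genes past the lower and the upper line were 4.75% and 9.88%. The median of the members was then -0.62, with 40 below 0 and 11 above. Of the 10, 6 had also been past the line before, namely SNRPE (-1.98), PRPF19 (-1.35), LSM1 (-1.25), LSM3 (-1.17), PRPF38B (-1.13) and PRPF18 (-1.01). The 4 that came past it were U2AF2 (-1.22), SNRPB (-1.09), PRPF31 (-1.03) and SF3A3 (-1.002). The other 12 of the 18 no longer reached it, among them PRPF39 (-0.95), SNRPD1 (-0.83), SF3B1 (-0.82), PRPF4B (-0.70), SNRPG (-0.65) and LSM5 (-0.46). SNRPF (0.15), PRPF38A (0.12) and LSM6 (0.11) came to lie above 0, and LSM4 (-0.35), LSM14B (-0.16), PRPF6 (-0.13) and SF3A2 (-0.04) below it. SNRPN (0.51), SF3B2 (0.53) and LSM11 (0.65) were then the highest members, and SNRPA stood at 0.37.

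**Figure D4:**
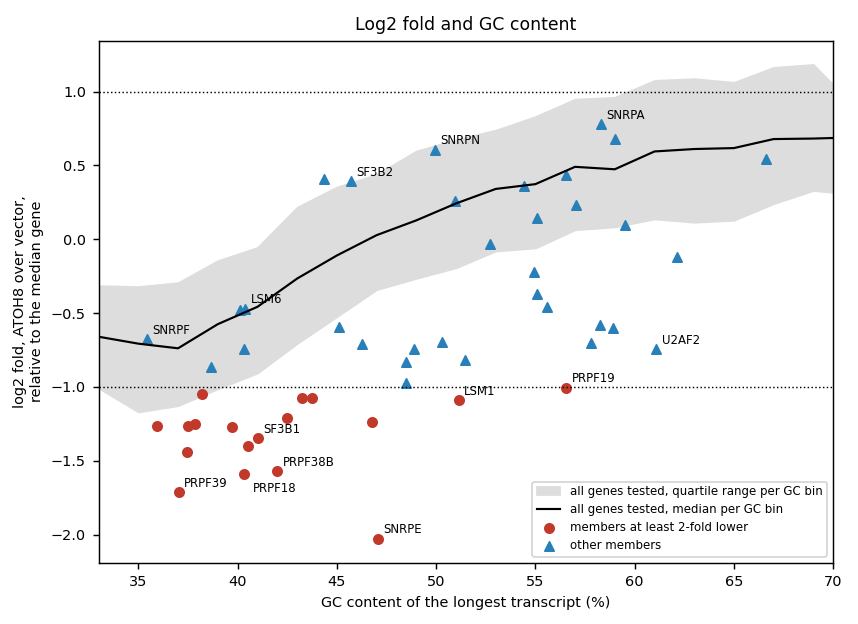
Log2 fold of ATOH8 over vector relative to the median gene against GC content of the longest transcript, with members at least 2-fold lower as red circles, other members as blue triangles, and the median and quartile range of all genes tested in GC bins as a line and a grey band. SNRPE, at 47.1% GC and -2.03, lies furthest below the line, and 40 of the 51 members lie below 0 once the trend is taken off.

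Chromosome 19, which is GC-rich, carried more of the 51 genes than any other chromosome. It held 9, 0 of them at least 2-fold lower, with a median log2 fold of -0.22. Of all 826 tested genes of that chromosome, 2.06% were at least 2-fold lower, and they had a median of 0.44 and a median GC content of 59.7%. The 42 members on other chromosomes included all 18 at least 2-fold lower and had a median of -0.78. After the correction for GC content, 2 of the 9 and 8 of the 42 were at least 2-fold lower. After the same correction 40 of the 826 genes of chromosome 19 were, and 4.75% of all genes. Log2 fold had Spearman correlations of only -0.18 with transcript length and 0.04 with mean level across the members.

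The authors' deposited table of their own comparison, which compares the same 2 libraries, held 22 of the 51 genes, all of them marked down and 0 marked up. Of the 12342 tested genes, 14.7% were in the authors' deposited table as down and 5.16% as up. The 22 included 15 of the 18 genes at least 2-fold lower here, and LSM8, PRPF19 and SF3B6 were the other 3. All genes held there had a q-value of at most 0.05 and a log2 ratio of at least 1.00 in size. A gene that is absent may therefore have missed either limit. The authors' deposited table gave PRPF39 the smallest q-value of the members, 4.7e-11, at a log2 ratio of -2.43. It gave SNRPE a log2 ratio of -2.43 and a q-value of 0.00102, PRPF4B -2.09 and 8.12e-06, and SF3B1 -1.74 and 0.000231. The other 7 in the authors' deposited table, from SF3A3 (-1.40) to SNRPB (-1.06), were within 2-fold of the median gene here. These ratios come from the same FPKM and are no independent evidence. They are neither centred nor damped by a pseudocount, so their sizes are not on the scale of the log2 folds given here.

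To show the sequence upstream of genes at either end of the range, the 250 bases before the RefSeq gene start (GRCh38.p14) are printed for the pair with the lowest log2 folds and the pair with the highest among the 36 members whose window in the RefSeq promoter table begins at the gene's outer start. They are PRPF18 (chr10:13586715-13586964), PRPF38B (chr1:108692060-108692309), SF3A2 (chr19:2236574-2236823) and SNRPA (chr19:40750953-40751202), all on the plus strand, written 5′ to 3′. Capitals mark CANNTG, the E-box letters that basic helix-loop-helix factors are known to bind, which read the same on both strands.
PRPF18: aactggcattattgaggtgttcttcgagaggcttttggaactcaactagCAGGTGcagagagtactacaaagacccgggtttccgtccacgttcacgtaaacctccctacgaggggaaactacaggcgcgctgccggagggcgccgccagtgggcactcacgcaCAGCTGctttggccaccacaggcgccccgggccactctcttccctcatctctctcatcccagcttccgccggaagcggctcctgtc
PRPF38B: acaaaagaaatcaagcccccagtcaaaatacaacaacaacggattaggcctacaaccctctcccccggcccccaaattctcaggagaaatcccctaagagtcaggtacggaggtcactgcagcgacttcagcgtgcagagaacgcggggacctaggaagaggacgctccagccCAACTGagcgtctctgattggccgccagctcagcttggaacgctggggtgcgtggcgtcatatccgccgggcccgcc
SF3A2: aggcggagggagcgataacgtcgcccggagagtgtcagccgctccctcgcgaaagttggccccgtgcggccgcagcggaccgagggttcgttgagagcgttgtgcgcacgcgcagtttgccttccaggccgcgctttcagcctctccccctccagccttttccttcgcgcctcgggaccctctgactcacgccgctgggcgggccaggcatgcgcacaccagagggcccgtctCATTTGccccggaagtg
SNRPA: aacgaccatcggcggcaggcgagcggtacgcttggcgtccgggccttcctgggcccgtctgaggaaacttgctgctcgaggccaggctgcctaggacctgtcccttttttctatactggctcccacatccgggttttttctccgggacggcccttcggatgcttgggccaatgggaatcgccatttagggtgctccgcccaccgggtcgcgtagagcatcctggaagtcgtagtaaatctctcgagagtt
CANNTG occurred in 19 of the 36 members' windows (52.8%), in 53.0% of the windows of 7884 tested genes and in 62.6% of all 24885 RefSeq windows of this kind. It was in 5 of 9 windows of members at least 2-fold lower and in 14 of 27 of the others. The form CACGTG, which is also counted as CANNTG, was in 1 of the 36, against 9.17% for tested genes and 6.44% for all windows. The members' share for CANNTG was thus near that of tested genes and below that of all windows, and their share for CACGTG, which rests on 1 window, was below both. A match is a description and not a bound site.

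Genes that act beside the members were lower in most, but not all, of the groups examined. Over 61 genes of 5 lists of splicing and snRNP assembly outside the members, 15 were at least 2-fold lower and 0 higher, and the median was -0.63, where 9.46% of all genes were at least 2-fold lower. Most genes that assemble Sm rings on snRNA or methylate Sm proteins also lay below the median gene, 12 of 13. Of 13 genes of the SMN complex and the Sm-methylating complex, 5 were at least 2-fold lower (median -0.90), led by GEMIN2 (4.55 FPKM in ATOH8 and 18.6 FPKM in vector, -1.46) and SMN2 (6.39 and 21.3 FPKM, -1.23). SMN1 and SMN2 are near-identical copies, so their values are uncertain individually. GEMIN8 stood apart at 8.77 and 6.07 FPKM (0.82).

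Of 17 genes of the PRPF19 complex and related factors, 6 were at least 2-fold lower (median -0.72), led by BCAS2 (3.81 FPKM in ATOH8 and 21.5 FPKM in vector, -1.87) and PLRG1 (7.01 and 27.9 FPKM, -1.49), both of which encode partners of PRPF19. Of 7 branch site and U1-associated genes, 4 were at least 2-fold lower (median -1.06), led by LUC7L3 (14.3 and 54.7 FPKM, -1.505). The 17 other snRNP proteins had a median of -0.45 with 0 past the 2-fold line, and SNRNP27 (16.2 and 39.6 FPKM, -0.88) and SNRNP25 (11.9 and 29.4 FPKM, -0.88) had the lowest log2 folds. The 7 genes listed for the minor spliceosome, which removes a rare class of introns, had a median of 0.08. Of these, PDCD7 (12.2 and 10.7 FPKM, 0.54) and ZRSR2 (1.60 and 3.56 FPKM, -0.46) were furthest from the median gene. SNRNP25 (-0.88), SNRNP48 (-0.76) and SNRNP35 (0.02) also encode minor spliceosome proteins but were counted with the other snRNP proteins. After the correction for GC content the medians were -0.65 for the SMN and methylation genes, -0.37 for the PRPF19 complex and -0.74 for the branch site list. They were -0.57 for the other snRNP proteins and 0.04 for the 7 genes listed for the minor spliceosome. Of the 61 genes, 6 were then at least 2-fold lower, against 4.75% of all genes after the same correction. Whether the lists differ from one another was not tested, because 1 library per group gives no error for such a difference.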

How the data were processed

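RNA sequencing of 2 A549 libraries was used, 1 with ATOH8 and 1 with vector, grouped by the treatment label. Levels were deposited as FPKM by the authors, in 1 table for each library, per the file headers. The submitters' processing notes name CASAVA, HISAT2, Cufflinks 2.2.1 and hg38 (GRCh38). The annotation release, strand setting, filters and depth were not found there or in the labels. No counts can be had from FPKM, so depth is unknown and no counting interval is given. The authors also deposited a comparison with p-values and q-values and a log2 ratio, read as a score because ratios to 0 are written as extreme numbers, per the file headers. Its 2 columns of per-library FPKM fit none of the sample labels and were left aside.

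Both tables were merged on the gene identifier, and entries with the same symbol were added up. Log2 folds used a pseudocount of 1 FPKM and genes with a mean of at least 1 FPKM, centred on the median of genes with a mean of at least 5. No test between groups was run. For the GC correction, a lowess curve of log2 fold on GC content (fraction 0.3, statsmodels 0.14.6) was taken off and the folds were centred again. GC content and positions came from GENCODE 29, matched for 99.8% of tested genes. Shared sequence was counted in 50-base windows, on either strand, between the longest transcript of a member and all transcripts of other genes. The calculation of folds was tested on simulated data.

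Every member could be given in its role group. Full values were planned for the members past 2-fold, the highest and lowest of each role group, the 5 most abundant, and the 2 furthest genes of each pathway list. Values of other members were added after they were seen. For 1 member and 1 pathway gene that this rule names, values are not reported here, and both stay in the counts and medians. The members, lists and alternatives were chosen with earlier results of these data known. The alternatives tried were pseudocounts of 0.1 and 5, no minimum level or one of 5 FPKM, no centring, TPM or upper quartile scaling, the GC correction, the highest row of a shared symbol, and leaving out members with shared loci. Summing U2AF1 with U2AF1L5 and leaving out members with shared windows were added after seeing the data.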

Additional observations from a re-analysis of the deposited data

How the results depend on the processing

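Of the 51 genes, 18 were at least 2-fold lower relative to the median gene. The count was 10 with a pseudocount of 5 FPKM, where low genes are damped and 4.25% of all genes were at least 2-fold lower. It was 29 with the FPKM as deposited and no centring, and 26 with TPM, where 19.0% and 19.6% of all genes were at least 2-fold lower, against 9.46%. It was 10 with the GC correction, where 6 of the 18 remained. Under the other 8 alternatives it lay between 12 (of the 28 members with a locus of their own) and 19 (pseudocount of 0.1 FPKM). The share of all genes at least 2-fold lower then lay between 6.22% (no minimum level) and 13.5% (pseudocount of 0.1 FPKM). The count at least 2-fold higher was 0 under each of the 12 alternatives. The median log2 fold of the members lay between -1.07 (as deposited) and -0.62 (GC correction), against -0.71, and no gene past the 2-fold line changed sign under an alternative. No paired analysis was possible because each group held 1 library, and for the same reason no library could be left out. Depth is unknown, so the precision of low values such as LSM11 or PRPF18 in the ATOH8 library cannot be stated.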

Other observations

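Partners of the LSM1 ring and of the U7 snRNP were looked at beside the members of those particles. Of 8 genes of mRNA decapping and 5′ to 3′ decay that act with the LSM1 ring, 0 lay past either 2-fold line. Of all genes, 9.46% lay past the lower line and 12.8% past the upper, so 0 of so few genes does not set them apart. The median log2 fold of the 8 relative to the median gene was -0.07, against -0.47 for the 7 genes LSM1 to LSM7. Whether these partners differ from the ring genes was not tested. DCP2, the decapping enzyme gene, was at 1.95 FPKM in the ATOH8 library and 4.78 FPKM in the vector library (-0.61), and DCP1B at 4.46 and 3.91 FPKM (0.51). With the GC correction DCP1B stood at 1.26, and the median of the 8 was 0.16. Of 6 genes of histone mRNA 3′ end processing, 0 were past the 2-fold line, against 9.46% of all genes lower and 12.8% higher. Below the median gene lay 5 of the 6 (median -0.90). CPSF3, the endonuclease gene, was at 21.3 and 54.7 FPKM (-0.96), and CASP8AP2 at 0.437 and 2.54 FPKM (-0.94). At the low levels of CASP8AP2 the pseudocount of 1 FPKM makes the log2 fold smaller than the ratio of the levels. Its place inside the 2-fold line thus depends on that pseudocount. SLBP, whose product binds the histone stem loop, was at 13.9 and 34.9 FPKM (-0.91). After the GC correction SLBP (-1.05) and CSTF2 (-1.10) were past the line, both named after their values were seen, where 4.75% of all genes were.

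The pseudogene SNRPGP15, left out by the rule, was at 0.523 FPKM in the ATOH8 library and 0.470 FPKM in the vector library. No gene with a symbol starting RNU or RNVU, the names of spliceosomal snRNA genes, was listed in either table, so the RNA components of these particles were not analysed here.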
